A study of Homo sapiens with 16 samples.

Results

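The genes described are the protein-coding genes on chromosome 19 whose symbol is ZNF followed by a number, the Krüppel-type zinc finger genes that chromosome 19 holds in long tandem arrays. There were 238 of them in the GRCh37 annotation. A total of 10 or more counts across the 8 libraries grown in a given serum was required, and 233 of 16069 protein-coding genes tested were members in low serum, against 225 of 15414 in standard serum. All 225 were also among the 233, and 5 genes (ZNF177, ZNF729, ZNF99, ZNF728 and ZNF835) passed in neither. The genes were read in 16 bulk RNA-Seq libraries from MDA-MB-231 and MDA-MB-436, established mesenchymal triple-negative breast cancer lines. Both lines were stably transfected with the 7TGP reporter, in which Tcf/Lef sites drive eGFP, kept under puromycin selection, and sorted repeatedly by FACS into a 7TGP-NEG (eGFP-negative, Wnt-negative) and a 7TGP-POS (eGFP-positive, Wnt-positive) subline. The 4 sublines were grown in low serum (0.5% FBS, harvested on day 3) or standard serum (10% FBS, harvested on day 6), which gave 8 groups with 2 biological replicates each. Each subline was derived once, so a difference between POS and NEG is a difference between a pair of sorted cell populations, and its replicates carry the spread between cultures of the same subline. None of the 16 libraries came from unsorted cells, so a loss in 7TGP-NEG and a gain in 7TGP-POS cannot be told apart. Words such as rose, riser, went or fell compare 7TGP-POS with 7TGP-NEG and give no order in time. The study's methods give a different RNA selection, library kit and sequencer for each serum condition (the labels name the same kit for all libraries), so that serum, days in culture and library preparation cannot be told apart, and nothing was tested between serum conditions. The methods also give a different culture medium for each cell line (the labels name the same for both), so that medium and line cannot be told apart in any comparison of the lines.

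Most ZNF proteins of this chromosome join a KRAB domain to a tandem array of zinc fingers. The fingers read a DNA sequence, often inside a transposable element, and the KRAB domain binds TRIM28 (KAP1), which brings the histone methyltransferase SETDB1 and heterochromatin proteins to the site. The arrays grew by repeated gene duplication, so neighbours are paralogs, and ZNF genes are themselves known targets of this heterochromatin. ZNF91 and ZNF93 are known repressors of retrotransposons, and ZNF274 is known to bring SETDB1 to the zinc finger genes.

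On the GRCh37 map, members separated by gaps of at most 500 kb and at least 4 in number were taken as a cluster. This gave 10 clusters, lettered A to J along the chromosome, and 12 scattered members. Cluster D, at chr19:19779605-24312770, spans 4.533 Mb and holds 37 members with only 1 other protein-coding gene among them. The other large clusters are C (chr19:11594242-12750912, 25 members), F (chr19:36673178-38307940, 24), G (chr19:44029649-45004576, 22), H (chr19:52074536-54083523, 39) and J (chr19:57702868-58992597, 40). Clusters A, B, E and I hold 5, 13, 5 and 16.

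The promoters of 6 members are printed because the results turn on whether these genes were read at all. Each is the RefSeq window from 250 bases before to 50 bases after the gene start on GRCh38.p14, 5′ to 3′ on the gene's strand, with every CG dinucleotide in capitals. ZNF626 (chr19:20661522-20661821, minus strand) was at the floor, with 3 counts or fewer in both libraries, in all MDA-MB-436 groups. ZNF43 (chr19:21836133-21836432, minus) and ZNF91 (chr19:23395422-23395721, minus) were near 0 in MDA-MB-436 7TGP-NEG and present in MDA-MB-436 7TGP-POS. ZNF430 (chr19:21020407-21020706, plus) and ZNF254 (chr19:24086937-24087236, plus) lie among them in cluster D and were detected, with at least 10 counts in both libraries, in all 8 groups. ZNF320 (chr19:52897645-52897944, minus) belongs to cluster H and had the largest change between MDA-MB-436 sublines that passed the test among members with neither group at the floor in standard serum.
ZNF626: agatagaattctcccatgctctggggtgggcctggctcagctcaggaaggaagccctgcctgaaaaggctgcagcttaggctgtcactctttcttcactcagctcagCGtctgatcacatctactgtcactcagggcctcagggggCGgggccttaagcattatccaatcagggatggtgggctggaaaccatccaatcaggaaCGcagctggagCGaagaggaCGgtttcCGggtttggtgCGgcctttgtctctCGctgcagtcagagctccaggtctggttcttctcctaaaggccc
ZNF43: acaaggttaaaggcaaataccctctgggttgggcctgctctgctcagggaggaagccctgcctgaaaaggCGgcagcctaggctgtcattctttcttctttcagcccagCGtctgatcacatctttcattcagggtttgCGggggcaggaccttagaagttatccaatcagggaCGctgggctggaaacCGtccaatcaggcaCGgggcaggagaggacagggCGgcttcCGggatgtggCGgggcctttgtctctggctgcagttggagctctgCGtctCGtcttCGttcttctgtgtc
ZNF91: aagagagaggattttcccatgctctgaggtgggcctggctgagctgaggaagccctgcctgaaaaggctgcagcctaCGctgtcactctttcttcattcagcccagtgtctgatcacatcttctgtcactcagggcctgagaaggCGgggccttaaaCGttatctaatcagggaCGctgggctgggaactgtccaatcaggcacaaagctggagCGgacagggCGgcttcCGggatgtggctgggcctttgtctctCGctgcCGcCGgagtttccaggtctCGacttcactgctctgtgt
ZNF430: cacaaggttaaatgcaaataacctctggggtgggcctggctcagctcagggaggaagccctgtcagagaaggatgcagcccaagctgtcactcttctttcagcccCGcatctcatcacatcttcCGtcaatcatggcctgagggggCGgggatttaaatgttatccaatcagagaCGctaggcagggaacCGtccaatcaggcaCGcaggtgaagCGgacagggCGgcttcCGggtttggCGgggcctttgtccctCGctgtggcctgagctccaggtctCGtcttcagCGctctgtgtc
ZNF254: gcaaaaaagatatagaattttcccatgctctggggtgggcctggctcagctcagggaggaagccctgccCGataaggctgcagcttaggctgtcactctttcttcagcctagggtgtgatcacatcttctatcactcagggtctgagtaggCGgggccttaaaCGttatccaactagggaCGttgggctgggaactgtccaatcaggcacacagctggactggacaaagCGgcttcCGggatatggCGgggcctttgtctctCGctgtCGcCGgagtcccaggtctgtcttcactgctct
ZNF320: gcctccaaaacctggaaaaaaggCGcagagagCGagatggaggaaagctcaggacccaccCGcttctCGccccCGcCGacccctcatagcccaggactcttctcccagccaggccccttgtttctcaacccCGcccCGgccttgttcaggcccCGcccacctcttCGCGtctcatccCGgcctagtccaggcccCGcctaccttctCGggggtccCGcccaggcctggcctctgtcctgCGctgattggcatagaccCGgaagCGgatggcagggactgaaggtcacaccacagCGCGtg

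A window was found for 208 of the 238 members. The 5 printed cluster D promoters carry 8 CG dinucleotides in ZNF626, 12 in ZNF43, 11 in ZNF91, 13 in ZNF430 and 10 in ZNF254, and ZNF320 carries 20. Over the 29 windows of cluster D the median was 10 CG (range 8 to 18), against 22 (2 to 49) over the 179 windows of members elsewhere on the chromosome and 14 over all 35116 windows of the table. The ratio of observed to expected CG had a median of 0.438 in cluster D and 0.798 in the other members. Within cluster D the median count of CG was 10 in the 9 windows of genes detected in all 8 groups, 10 in the 12 windows of genes silent in MDA-MB-436 7TGP-NEG and above the floor in 7TGP-POS in at least 1 serum condition (ZNF486, with 4 and 0 counts, among them), and 9 in the 3 windows of genes silent in both sublines. The ranges overlapped (9 to 18, 8 to 16 and 8 to 13), and the median ratio of observed to expected CG was 0.493, 0.422 and 0.3985 in the same order. The letters ATCAAAG, the core of the Tcf/Lef site, were searched on both strands and were in 0 of 29 cluster D windows and in 2 of 179 other member windows (1.12%, ZNF44 and ZNF799), against 2.62% of all windows. After the sequences had been read, 2 further motifs were counted on both strands, with no letters shared between them. CCAAT was in 29 of 29 cluster D windows, 45.3% of the other member windows and 34.6% of all windows, and CTTCCGG was in 72.4%, 40.2% and 10.3%. These matches describe letters in the windows only.

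Libraries held between 27918418 and 46044073 counts on genes. The members took 0.312% to 0.346% of the counts of a library in low serum and 0.205% to 0.277% in standard serum, so that single members rested on few of a library's reads. VIM, ZEB1, FN1 and CD44 were present in all groups (lowest value 10.98 TPM, ZEB1), whereas the group means of SPARC lay at 1.21 TPM or lower in all groups but MDA-MB-436 7TGP-POS. CDH1, ESR1 and PGR, which define luminal and epithelial cells, stayed at or below 0.2 TPM, while EPCAM (1.67 to 12.1 TPM), GATA3 (0.57 to 7.0 TPM) and KRT18 (73.9 to 431.7 TPM) were read. Among markers of other cells, PDGFRA stayed at or below 0.25 TPM, PTPRC reached 4.04 TPM in MDA-MB-231 in standard serum, and ACTA2 reached 11.5 TPM, and the part of such cells in the results was not tested. The replicates of MDA-MB-436 7TGP-POS grown in standard serum differed by a log2 ratio that tracked the GC content of transcripts (r = −0.678 across 12629 genes, which are not independent replicates), and in the other 7 groups r lay between −0.189 and 0.327. The median of that ratio was 0.096 for 204 members and 0.045 for all genes, and the members called between the MDA-MB-436 sublines in standard serum, 32 with all libraries, numbered 35 without replicate 1 and 29 without replicate 2 of that group. Of the 238 members, 120 had no 100-base stretch of transcript in common with another gene and 38 shared over 10% of such stretches, the highest being ZNF177 with 83.3%. Among the genes named, the share was over 10% also for ZNF20 (49.5%), ZNF208 (19.7%), ZNF568 (15.9%) and ZNF799 (13.9%), and for others it is given beside their values, because reads of such stretches could be lost or split between genes. The other gene could be any annotated gene, also an overlapping one at the same place, so a high share need not mean a near-identical paralog.

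A gene at the floor is also called silent. Of the 238 members, 175 were detected in all 8 groups. The highest levels per length belonged to members outside cluster D, led by ZNF146 in cluster F, a protein of zinc fingers without a KRAB domain, at 57.97 TPM in MDA-MB-231 7TGP-NEG and 64.08 TPM in MDA-MB-436 7TGP-NEG in low serum. Cluster D genes were expressed at low levels throughout, and the cluster's member with the highest mean, ZNF14, reached 6.91 TPM in MDA-MB-231 7TGP-NEG and 9.62 TPM in MDA-MB-436 7TGP-POS in low serum.

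Of the 10 clusters, D had the highest share of genes called between the NEG sublines of the cell lines in both serum conditions. Most of them were genes that the NEG subline of MDA-MB-231 expressed and the NEG subline of MDA-MB-436 did not. In low serum, 28 of its 37 genes were detected in MDA-MB-231 7TGP-NEG and 10 in MDA-MB-436 7TGP-NEG, where 24 were at the floor. In standard serum the same counts were 27, 10 and 25. Summed over the cluster, the level was 113.5 TPM in MDA-MB-231 7TGP-NEG against 47.63 TPM in MDA-MB-436 7TGP-NEG in low serum, and 72.55 against 46.25 TPM in standard serum. Over all 238 members the sum of TPM was higher in MDA-MB-436 7TGP-NEG (2252 TPM against 1862 in low serum, 2061 against 1837 in standard serum). In CPM, which takes no account of gene length, the low serum sums of the members tested went the other way. They were 3923 and 3842 in MDA-MB-231 7TGP-NEG and 3528 and 3479 in MDA-MB-436 7TGP-NEG. In standard serum the CPM sums overlapped (2447 and 2462 against 2438 and 2517). In bulk RNA a lower level can come from fewer cells that express a gene or from less RNA in each cell, and these cannot be told apart.

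**Figure D1:**
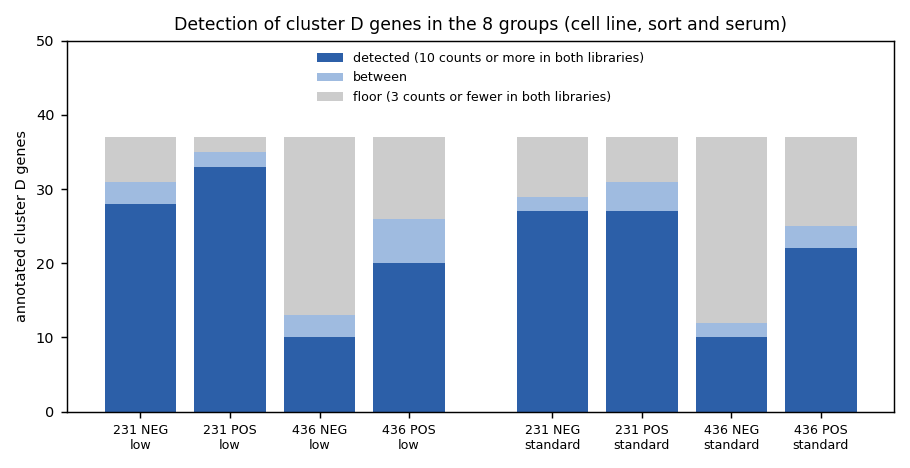
Number of the 37 annotated cluster D genes (y axis) that were detected, at the floor or between in each of the 8 groups (x axis, cell line with reporter sort over serum condition). Detected genes number 28 and 27 in MDA-MB-231 7TGP-NEG, 10 and 10 in MDA-MB-436 7TGP-NEG, and 20 and 22 in MDA-MB-436 7TGP-POS.

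Between the NEG sublines, edgeR's quasi-likelihood test called 24 of 34 cluster D genes tested in low serum higher in MDA-MB-231 and 0 lower, and in standard serum 19 of 30 higher and 3 lower (calls needed a Benjamini-Hochberg adjusted p under 0.05 together with a change of 2-fold or more). Among all genes tested, 20.5% were called higher and 21.4% lower in low serum, against 21.3% and 25.4% in standard serum. With a gene at the floor in 1 group put at the bound its counts allow, the median log2 fold change was 4.29 over 31 cluster D genes in low serum and 3.56 over 28 in standard serum. Genes at the floor in both groups were left out of these medians. The medians over all genes tested, 0.01 and −0.09, leave out no gene. Over all members, 86 of 233 were called in low serum (62 higher in MDA-MB-231, 24 lower), or 36.9% against a background of 41.9%, and 87 of 225 in standard serum (48 higher, 39 lower), or 38.7% against 46.7%. The members as a whole thus held a smaller share of calls than all genes, and cluster D a larger one. The filter on summed counts lets in genes that pass through 1 cell line only, so these shares describe the genes tested and not all annotated genes.

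ZNF91 (ENSG00000167232, chr19:23487793-23578273 on GRCh37, minus strand), the known repressor of SVA elements, had the most counts in the cluster. In low serum its libraries held 1452 and 1399 counts in MDA-MB-231 7TGP-NEG, 1145 and 951 in MDA-MB-231 7TGP-POS, 5 and 3 in MDA-MB-436 7TGP-NEG, and 498 and 531 in MDA-MB-436 7TGP-POS. The same order gave 811 and 680, 457 and 555, 0 and 0, and 182 and 133 in standard serum. The MDA-MB-436 7TGP-NEG libraries stood apart from all the others, and no pair of these groups overlapped in low serum. Between the NEG sublines ZNF91 was 375-fold higher in MDA-MB-231 in low serum (log2 fold change 8.55 ± 0.172 SE, adjusted p = 2.06e-35 by edgeR) and at least 305-fold higher in standard serum (adjusted p = 6.46e-16), the latter a bound against 3 counts in each library.

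There were 13 cluster D genes that MDA-MB-231 7TGP-NEG expressed and that sat at the floor in the NEG subline of MDA-MB-436 in both serum conditions, namely ZNF506, ZNF682, ZNF90, ZNF486, ZNF626, ZNF85, ZNF738, ZNF493, ZNF100, ZNF43, ZNF257, ZNF681 and ZNF726. A further 5, ZNF91, ZNF93, ZNF737, ZNF66 and ZNF724, held at most 7 counts in a library there without meeting both conditions in both. Across the chromosome, 20 of 233 members (8.58%) were detected in MDA-MB-231 7TGP-NEG but at the floor in the MDA-MB-436 counterpart in low serum, as were 21 of 225 (9.33%) in standard serum, against 2.19% and 2.43% of all genes tested, and cluster D supplied 15 of the 20 and 15 of the 21. The opposite pattern, at the floor in MDA-MB-231 7TGP-NEG and detected in MDA-MB-436 7TGP-NEG, was shown by 0 cluster D genes in either serum condition and by 6 other members in each (2.58% and 2.67% of members, against 3.40% and 5.80% of all genes tested). Of the other cluster D genes, 10 were detected in all 8 groups (named below), and the rest were hardly read in any group. ZNF729, ZNF99 and ZNF728 were under the count filter in both serum conditions, ZNF208, ZNF676, ZNF98 and ZNF492 in standard serum, and ZNF723 and ZNF730 passed with at most 59 counts over 8 libraries.

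The silent genes lay between genes that both lines expressed. ZNF101, ZNF14, ZNF253, ZNF430, ZNF714, ZNF431, ZNF708, ZNF429, ZNF675 and ZNF254 were the 10 cluster D genes detected in all 8 groups, and they are spread from the first gene of the cluster to the last. ZNF430 held 282 and 301 counts in MDA-MB-231 7TGP-NEG, 361 and 344 in MDA-MB-231 7TGP-POS, 399 and 357 in MDA-MB-436 7TGP-NEG, and 277 and 252 in MDA-MB-436 7TGP-POS in low serum. ZNF254, the last gene of the cluster, held 443 and 420, 434 and 389, 313 and 268, and 370 and 354 in the same order. Neither gene was called in any of the comparisons of POS with NEG or between lines. In the standard serum comparison of lines, 3 of these shared genes were lower in MDA-MB-231, namely ZNF14 (2.00-fold, adjusted p = 2.04e-06), ZNF708 (2.84-fold, adjusted p = 3.84e-07) and ZNF429 (3.50-fold, adjusted p = 1.62e-05, all by edgeR). The call of ZNF14 ended without MDA-MB-231 NEG replicate 2 (log2 fold change −0.92) or MDA-MB-436 NEG replicate 1 (−0.99).

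**Figure D2:**
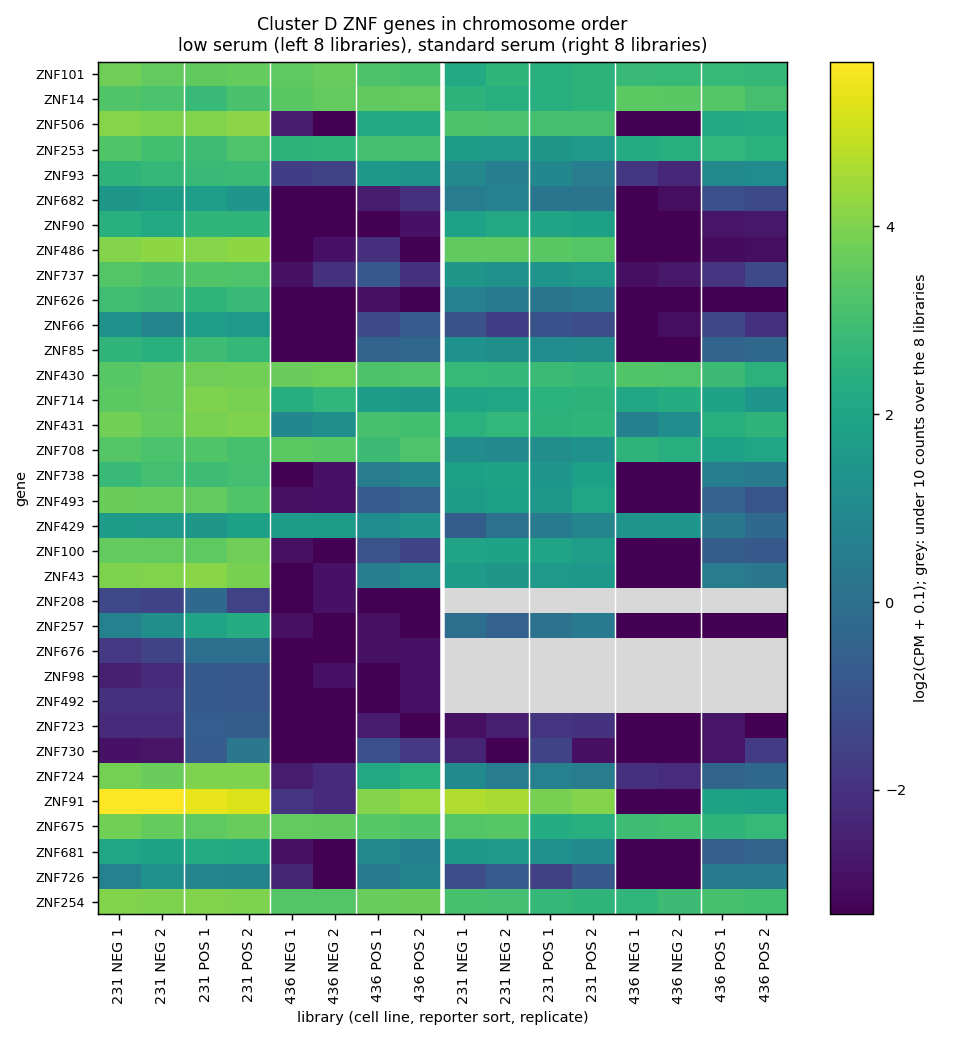
Normalised read count of the 34 cluster D genes tested in low serum (y axis, in chromosome order) in each of the 16 libraries (x axis), as log2(CPM + 0.1) in colour, with genes under 10 counts in standard serum in grey. The 4 MDA-MB-436 NEG columns are dark for the silent genes and bright for the 10 genes detected in all groups, which lie between them.

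The cluster also differed between the sorted MDA-MB-436 sublines, the comparison that asks what goes with Wnt reporter activity. In MDA-MB-436, 16 of 34 cluster D genes were called higher in 7TGP-POS and 0 lower in low serum, and 15 of 30 were called higher and 1 lower (ZNF429) in standard serum. Of all genes tested, 6.52% were called higher and 4.03% lower in low serum, against 6.47% and 6.06% in standard serum. With a gene at the floor in 1 subline put at its bound, the median log2 fold change was 1.75 over 26 cluster D genes in low serum and 1.64 over 25 in standard serum. Genes at the floor in both sublines were left out of these medians. The medians over all genes tested, 0.014 and 0.005, leave out no gene, so the sets compared are not alike. Over all members, 33 of 233 were called in low serum (26 higher, 7 lower), or 14.2% against a background of 10.5%, and 32 of 225 in standard serum (26 higher, 6 lower), or 14.2% against 12.5%. With no fold threshold, 98 of 233 (46 higher and 52 lower) and 83 of 225 had an adjusted p under 0.05. That was a smaller share than the 52.0% and 49.5% of all genes. Outside cluster D the shares called with the fold threshold were 8.54% (17 of 199) and 8.21% (16 of 195), below the background, while the other genes of chromosome 19 reached 8.77% and 13.0% and ZNF genes on other chromosomes 5.83% and 9.05%. With limma on log2(TPM + 1), a scale that shrinks the change of genes at low levels, 5 cluster D genes were called in each serum condition.

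**Figure D3:**
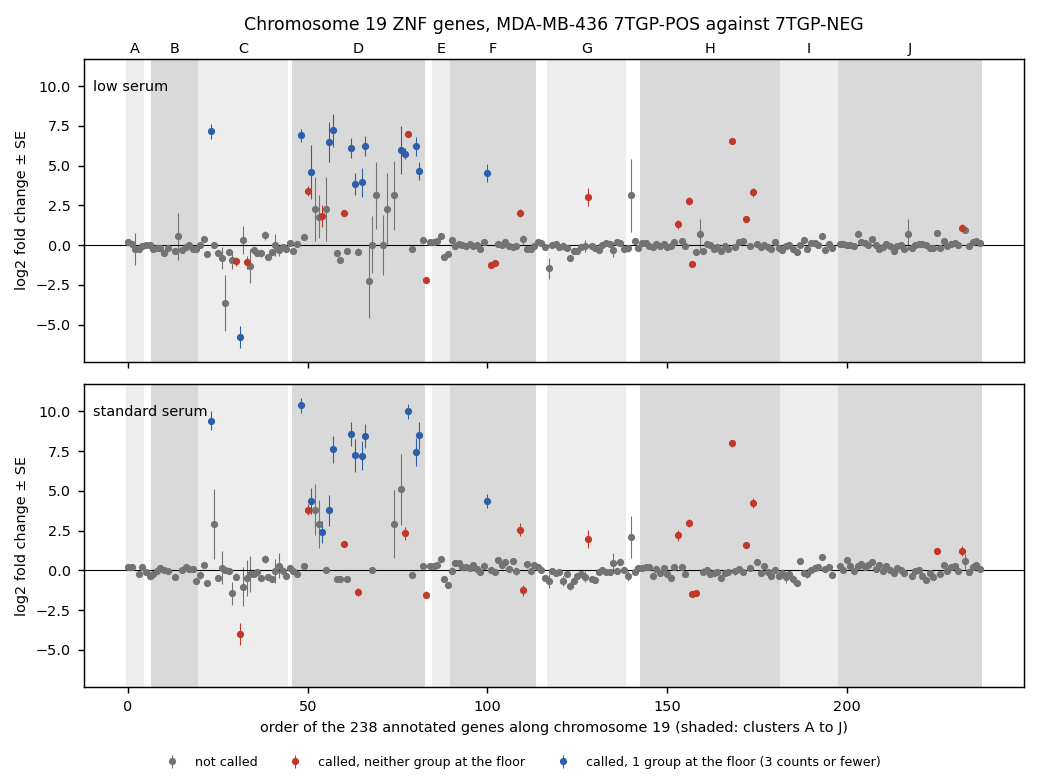
Log2 fold change of MDA-MB-436 7TGP-POS against 7TGP-NEG (y axis, points with standard error) for the members in chromosome order (x axis), low serum above and standard serum below, with clusters shaded. Called members are coloured by whether a group was at the floor, in which case the fitted value depends on the prior count and is no bound, and most high points lie in cluster D.

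Among the genes silent in MDA-MB-436 7TGP-NEG, ZNF506 (ENSG00000081665, chr19:19896648-19932560 on GRCh37, minus strand) held 2 and 0 counts there and 138 and 125 in 7TGP-POS in low serum, and 0 and 0 against 219 and 187 in standard serum. It was thus at least 44.5-fold higher in 7TGP-POS in low serum (adjusted p = 1.07e-18) and at least 57.4-fold higher in standard serum (adjusted p = 1.28e-11, both by edgeR). Its counts in MDA-MB-231 were 457 and 418 in 7TGP-NEG and 436 and 434 in 7TGP-POS in low serum, so the sublines of that line differed by less than those of MDA-MB-436. ZNF91 was 127-fold higher in 7TGP-POS in low serum (log2 fold change 6.99 ± 0.208, adjusted p = 5.46e-28) and at least 44.2-fold higher in standard serum (adjusted p = 2.97e-11). ZNF43 went from 0 and 1 counts to 41 and 52 in low serum, at least 15.9-fold (adjusted p = 1.18e-11), and from 0 and 0 to 63 and 44 in standard serum, at least 15-fold (adjusted p = 6.75e-08). None of the MDA-MB-436 NEG libraries reached the lowest POS library for these 3 genes.

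ZNF93, a known repressor of LINE-1 elements, was low, though above the floor, in the NEG subline of MDA-MB-436. It held 7 and 7 counts there and 82 and 67 in 7TGP-POS in low serum, and 6 and 4 against 91 and 79 in standard serum. The change was 10.7-fold (log2 3.42 ± 0.312, adjusted p = 2.64e-12) and 14.1-fold (3.82 ± 0.366, adjusted p = 1.19e-07). ZNF431, known as a repressor of Patched1, was detected in both sublines and rose from 56 and 59 to 252 and 215 counts in low serum (4.13-fold, log2 2.05 ± 0.153) and from 48 and 83 to 244 and 230 in standard serum (3.11-fold, 1.64 ± 0.187). Neither of these genes rests on a group at the floor.

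The remaining risers of cluster D had fewer reads. ZNF85 rose from 0 and 0 counts to 19 and 19 in low serum (at least 6.45-fold) and 31 and 28 in standard serum (at least 8.37-fold). ZNF681 rose from 1 and 0 to 54 and 38 (at least 15.5-fold) and from 0 and 0 to 28 and 25 (at least 7.51-fold). ZNF738, which shares 14.96% of its stretches, rose from 0 and 1 to 40 and 45 (at least 14.5-fold) and from 0 and 0 to 66 and 49 (at least 16.1-fold). These genes ended at 11.9% to 41.9% of their CPM in MDA-MB-231 7TGP-NEG. ZNF724, which shares 41.8%, rose from 2 and 3 counts to 130 and 146 (at least 47.0-fold) and from 5 and 5 to 32 and 28 (5.00-fold). ZNF493, ZNF100 and ZNF66 rose by at least 5.45-fold, 3.18-fold and 3.95-fold in low serum and 6.34-fold, 6.31-fold and 2.73-fold in standard serum. ZNF682 and ZNF737 had calls that turned on single libraries. In low serum ZNF682 went from 0 and 0 counts to 2 and 4, a rise of at least 1.04-fold whose call ended without either MDA-MB-436 NEG replicate or without POS replicate 2 (fitted log2 fold changes 4.55, 4.60 and 3.98), and ZNF737 went from 1 and 4 to 14 and 4, a call that ended without MDA-MB-436 NEG replicate 1 (1.03) or POS replicate 1 (0.74). In standard serum the call of ZNF737 ended without NEG replicate 1 (2.12) or POS replicate 2 (1.94).

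Levels in 7TGP-POS were unequal among the genes silent in MDA-MB-436 7TGP-NEG. Of the 13 genes at the floor in both serum conditions, 7 were detected in 7TGP-POS in both (ZNF506, ZNF85, ZNF738, ZNF493, ZNF43, ZNF681 and ZNF726) and 3 stayed at the floor in both (ZNF90, ZNF626 and ZNF257). ZNF90 held 143 and 119 counts in MDA-MB-231 7TGP-NEG in low serum, 0 and 0 in MDA-MB-436 7TGP-NEG and 0 and 1 in MDA-MB-436 7TGP-POS. ZNF626 held 209 and 194, 0 and 0, and 1 and 0 in the same groups. ZNF486 was the largest of the silent genes that hardly moved, with 446 and 485 counts in MDA-MB-231 7TGP-NEG, 0 and 1 in MDA-MB-436 7TGP-NEG and 4 and 0 in 7TGP-POS in low serum, and 363 and 331, 0 and 0, and 1 and 1 in standard serum. Its level in MDA-MB-436 7TGP-POS was 0.384% and 0.2% of that in MDA-MB-231 7TGP-NEG. These 4 genes had enough reads in MDA-MB-231 for the share reached by ZNF506 (28.2% and 50.7%) to have been seen. Other risers reached less in low serum, such as ZNF493 (4.43%) and ZNF100 (2.82%). ZNF257 had the fewest reads of the 4, too few in low serum for such a share to be told from the floor. ZNF726 lay at the other end, with 39 and 61 counts in MDA-MB-231 7TGP-NEG and 37 and 43 in MDA-MB-436 7TGP-POS in low serum, and 11 and 15 against 59 and 50 in standard serum, a difference between lines that was not tested.

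Detection in 7TGP-POS of genes silent in 7TGP-NEG was also counted over all genes. Of the members detected in MDA-MB-231 7TGP-NEG and silent in MDA-MB-436 7TGP-NEG, 10 of 20 (50%, low serum) and 12 of 21 (57.1%, standard serum) were detected in MDA-MB-436 7TGP-POS. Cluster D gave 8 of 15 and 10 of 15 of these, and members outside it 2 of 5 and 2 of 6. Among genes with that pattern that are not members, 60 of 332 (18.1%) and 49 of 354 (13.8%) were detected there. Going from the floor to detected between the MDA-MB-436 sublines was shown by 4.29% and 5.33% of members tested, against 0.828% and 0.921% of all genes tested. Cluster D supplied 8 of these 10 members in low serum and 10 of the 12 in standard serum, or 23.5% and 33.3% of its genes tested. Outside it 199 and 195 members were tested, so their share lay near that of all genes.

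In MDA-MB-231 the only cluster D gene at moderate levels called between sublines was ZNF675, lower in 7TGP-POS in standard serum (values below). ZNF91 was lower there without reaching the fold threshold (log2 fold change −0.38 in low and −0.65 in standard serum). In low serum 6 cluster D genes were called higher in 7TGP-POS, all at low counts and consecutive, from ZNF257 to ZNF730, in the order of the genes tested, and in standard serum 0 were called higher. ZNF257 held 40 and 57 counts in 7TGP-NEG and 102 and 118 in 7TGP-POS (2.37-fold, log2 1.25 ± 0.216, adjusted p = 8.2e-06 by edgeR). ZNF676 held 5 and 7 against 24 and 22 (3.95-fold, adjusted p = 0.0012). ZNF730 held 1 and 1 against 14 and 27, a rise of at least 7.26-fold (adjusted p = 2.17e-05). These genes held at most 1 count in each MDA-MB-436 NEG library. ZNF98 and ZNF723 rose by at least 4.18-fold and 4.87-fold, and both calls ended without MDA-MB-231 NEG replicate 1 (log2 fold changes 2.01 and 2.23). ZNF492 rose 3.07-fold from 4 and 4 to 13 and 11 counts (adjusted p = 0.0443). ZNF98 and ZNF492 share 23.7% and 18.4% of their stretches with other genes. DESeq2 did not call ZNF676, ZNF98 or ZNF723, and these were not the only members called here by edgeR that it did not call (its count is given below). In standard serum ZNF676, ZNF98 and ZNF492 had under 10 counts over the 8 libraries and were not tested. ZNF257 was tested there and not called, with 28 and 18 against 30 and 42 counts (log2 0.56 ± 0.34, adjusted p = 0.238), and neither were ZNF723 and ZNF730, which held at most 8 counts in a MDA-MB-231 library.

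Over all members, MDA-MB-231 7TGP-POS and 7TGP-NEG differed in few genes. There were 9 of 233 members called in low serum (7 higher, 2 lower), or 3.86% against a background of 5.90% (3.50% higher and 2.40% lower), and 4 of 225 in standard serum (2 higher, 2 lower), or 1.78% against 7.69% (4.96% and 2.72%). DESeq2 called 4 in low serum, and the standard serum count was 2 without NEG replicate 1 and 7 without NEG replicate 2 or POS replicate 1. Small decreases were more frequent than increases, and 30.9% and 36.9% of members had a log2 fold change above 0, against 47.8% and 48.7% of all genes. ZNF175 (ENSG00000105497, chr19:52074536-52095763 on GRCh37, plus strand), known as a regulator of HIV-1 expression in macrophages, was lower in 7TGP-POS in both serum conditions. Its libraries held 1946 and 1822 counts in MDA-MB-231 7TGP-NEG and 679 and 618 in 7TGP-POS in low serum (log2 −1.47 ± 0.068, adjusted p = 3.63e-21), and 986 and 897 against 444 and 481 in standard serum (−1.11 ± 0.0968, adjusted p = 6.39e-08). The groups did not overlap, and ZNF175 stayed near 300 counts in the MDA-MB-436 libraries of low serum, with 308 and 290 in 7TGP-NEG and 324 and 309 in 7TGP-POS. ZNF132 was higher in 7TGP-POS in both, with 36 and 42 counts against 86 and 101 in low serum (2.51-fold, adjusted p = 4.69e-07) and 6 and 10 against 21 and 23 in standard serum (2.57-fold, adjusted p = 0.00748). The standard serum call of ZNF132 ended without MDA-MB-231 NEG replicate 1, where its log2 fold change was 0.96. The other calls outside cluster D were ZNF575 in low serum, with a log2 fold change of −1.30 that went to −0.999 without NEG replicate 1 and −1.13 without POS replicate 2, and ZNF497 in standard serum, at 1.01, which went to 0.83 and 0.59 without the same libraries, and each of these calls ended there. In cluster D, ZNF675, known as an inhibitor of TRAF6 signalling, was lower in standard serum (315 and 299 counts against 149 and 173, log2 −1.02 ± 0.132), and it fell to −0.98 without NEG replicate 2 or POS replicate 1, just under the threshold.

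**Figure D4:**
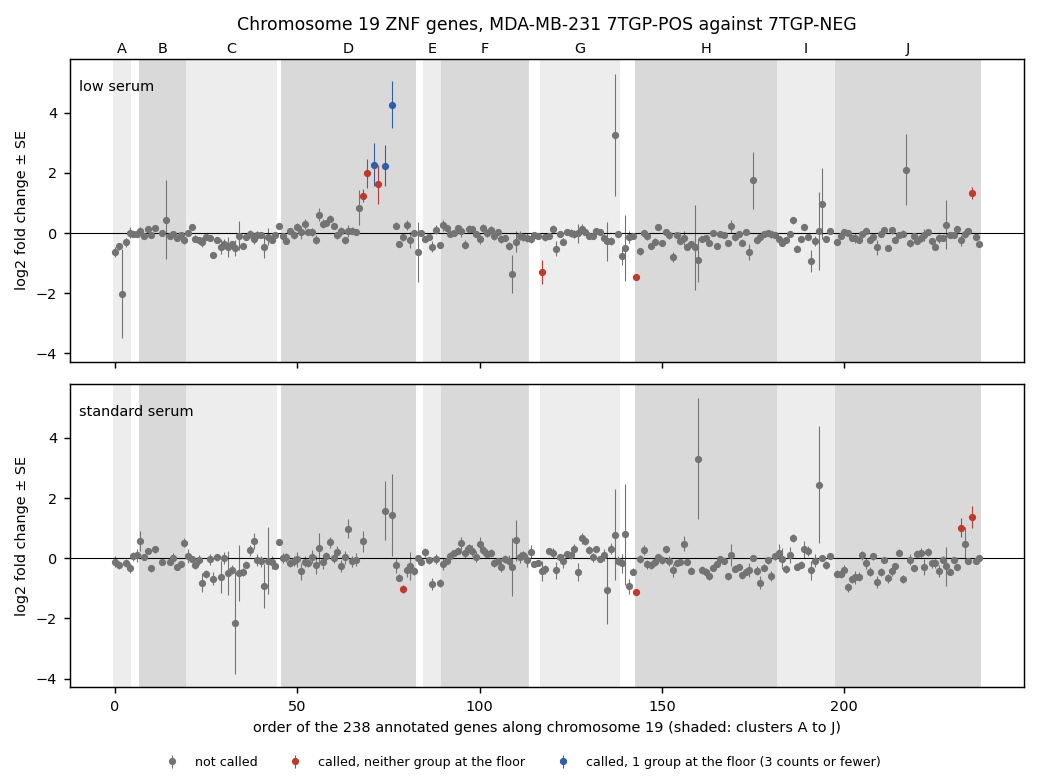
Log2 fold change of MDA-MB-231 7TGP-POS against 7TGP-NEG (y axis, points with standard error) for the members in chromosome order (x axis), low serum above and standard serum below. Called members number 9 and 4, with the low serum group of 6 in cluster D and ZNF175 and ZNF132 called in both panels.

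The members outside cluster D that changed most between the MDA-MB-436 sublines lay in clusters C, F and H. In cluster H, ZNF320 (ENSG00000182986, chr19:53364104-53400946 on GRCh37, minus strand) held 19 and 11 counts in MDA-MB-436 7TGP-NEG and 1363 and 1424 in 7TGP-POS in low serum, and 3 and 8 against 2023 and 1352 in standard serum. It was 94.3-fold higher in 7TGP-POS in low serum (log2 6.56 ± 0.139, adjusted p = 4.73e-33) and 253-fold higher in standard serum (7.98 ± 0.201, adjusted p = 2.8e-15). In MDA-MB-231 it held 1078 and 1039 counts in 7TGP-NEG and 814 and 787 in 7TGP-POS in low serum, so that only MDA-MB-436 7TGP-NEG was low. ZNF441 in cluster C went from 0 and 1 counts to 89 and 86 in low serum (at least 29.7-fold, adjusted p = 6.4e-16) and from 0 and 0 to 120 and 87 in standard serum (at least 29.0-fold, adjusted p = 1.06e-09). ZNF345 in cluster F went from 0 and 3 to 38 and 35 (at least 12.4-fold, adjusted p = 4.29e-09) and from 3 and 1 to 56 and 47 (at least 14.5-fold, adjusted p = 3.34e-07). In all 3, as in ZNF91, MDA-MB-436 7TGP-NEG was lowest of the 4 sublines, whereas MDA-MB-436 7TGP-POS was highest for ZNF320 alone.

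Cluster H held 5 called risers in MDA-MB-436 7TGP-POS in each serum condition among 39 and 38 genes tested, where 6.52% and 6.47% of all genes were called higher, besides 1 and 2 called lower. Besides ZNF320 they were ZNF665 (9.99-fold and 18.7-fold), ZNF610 (6.73-fold and 7.82-fold), ZNF415 (3.15-fold and 3.07-fold) and ZNF836 (2.49-fold and 4.61-fold). ZNF665 held 18 and 9 counts in 7TGP-NEG and 132 and 134 in 7TGP-POS in low serum, and 6 and 8 against 201 and 116 in standard serum. Other risers called in both serum conditions were ZNF793 in cluster F (4.06-fold and 5.81-fold), ZNF284 in cluster G (8.20-fold and 3.91-fold, 42.7% of stretches shared) and ZNF497 in cluster J (2.15-fold and 2.33-fold, 14.4% shared). The standard serum call of ZNF284 ended without either MDA-MB-436 NEG replicate or without POS replicate 2 (log2 fold changes 1.91, 2.02 and 1.51). The call of ZNF497 ended without NEG replicate 1 in low serum (0.96) and without NEG replicate 2 (1.01) or POS replicate 2 (0.95) in standard serum. In clusters A, B, E and I no member was called between the MDA-MB-436 sublines by edgeR in either serum condition.

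Some members moved the other way. ZNF536, a zinc finger repressor known from neurons that lies alone at chr19:30715798-31204493, held 253 and 217 counts in MDA-MB-436 7TGP-NEG and 53 and 49 in 7TGP-POS in low serum, and 155 and 174 against 68 and 66 in standard serum. Its log2 fold change was −2.17 ± 0.169 (adjusted p = 2.69e-14) and −1.52 ± 0.203 (adjusted p = 1.21e-05), and it was at the floor in all MDA-MB-231 groups. ZNF880, in cluster H beside ZNF610, went from 492 and 449 to 206 and 197 counts (−1.19 ± 0.106) and from 456 and 587 to 250 and 187 (−1.49 ± 0.12). ZNF878 in cluster C, which shares 15.3% of its stretches, went from 36 and 34 to 0 and 1, at least 11.4-fold lower (adjusted p = 5.67e-09), and from 19 and 40 to 4 and 0 (log2 −4.01 ± 0.693, adjusted p = 0.000153). These were the 3 members called lower in both serum conditions, beside 25 called higher in both. The 28 made up 84.8% of the 33 members called in low serum and 87.5% of the 32 called in standard serum. The same sublines were grown in both, and this share was not counted over all genes, so whether it is particular to the members cannot be told. Falls called in 1 serum condition only were those of ZNF433, ZNF20, ZNF829 and ZNF568 (low serum) and ZNF429, ZNF540 and ZNF528 (standard serum). Of these, ZNF433 fell below the threshold without MDA-MB-436 NEG replicate 2 (−0.90) or POS replicate 2 (−0.84), and ZNF540 without NEG replicate 1 (−0.94).

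**Figure D5:**
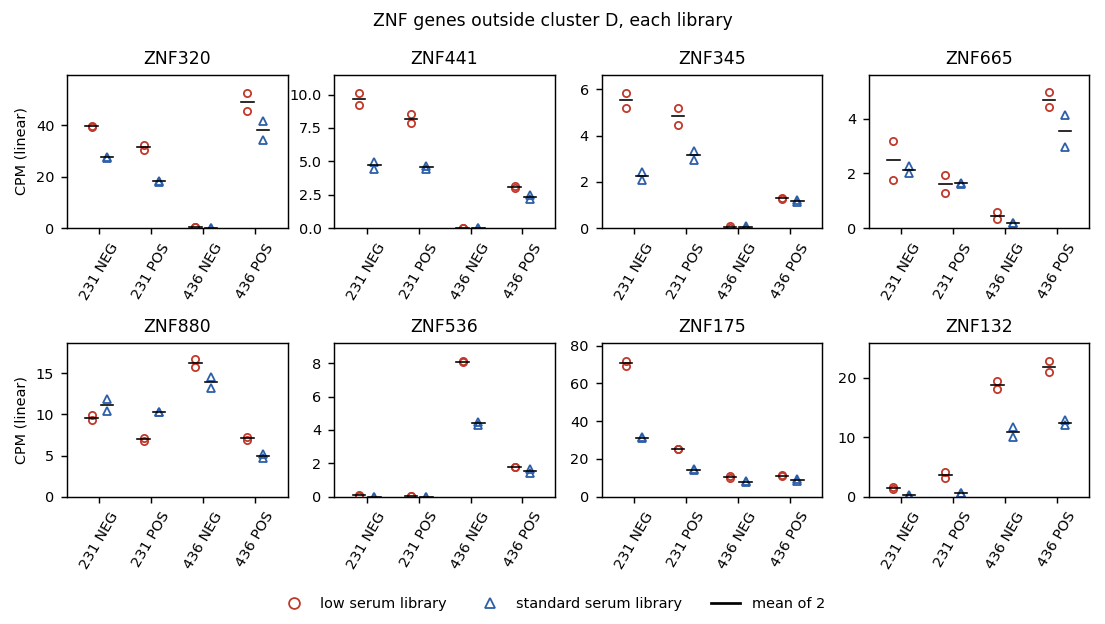
Normalised read count in CPM (y axis, linear) of 8 members outside cluster D in each library (x axis, subline), with circles for low serum, triangles for standard serum and a bar at the mean of 2 replicates. ZNF320, ZNF441, ZNF345 and ZNF665 are lowest in MDA-MB-436 NEG, ZNF880 and ZNF536 are highest there, ZNF175 is highest in MDA-MB-231 NEG and ZNF132 is lowest in MDA-MB-231.

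Between the NEG sublines, calls in cluster C were mostly higher in MDA-MB-231 and calls in clusters I and J mostly lower. In cluster C, 14 of 25 genes were called higher in MDA-MB-231 in low serum and 0 lower, and in standard serum 6 were higher and 1 lower. ZNF69 had 568 and 555 counts in MDA-MB-231 7TGP-NEG and 1 and 2 in MDA-MB-436 7TGP-NEG in low serum (at least 202-fold, adjusted p = 8.26e-29), and ZNF491 had 128 and 118 against 0 and 0 (at least 44.3-fold, adjusted p = 2.23e-18). Both, with ZNF844 (43.2% shared), stayed at the floor in MDA-MB-436 7TGP-POS in both serum conditions, unlike their neighbour ZNF441. In cluster J, 2 of 40 genes were higher and 9 lower in MDA-MB-231 in low serum, and 0 of 39 were higher and 14 lower in standard serum. In cluster I, 0 of 15 were higher and 5 lower in low serum, and 1 was higher and 6 lower in standard serum. The shares of all genes given above (20.5% higher and 21.4% lower in low serum, 21.3% and 25.4% in standard serum) are the background of these counts. The 9 of 40 lower in cluster J in low serum and the 6 of 25 higher in cluster C in standard serum lie near it. The genes furthest in this direction included ZNF677 in cluster H and ZNF471 in cluster I, both described as tumour suppressors lost by promoter methylation in cancers. ZNF677 held 1 and 1 counts in MDA-MB-231 7TGP-NEG and 610 and 544 in MDA-MB-436 7TGP-NEG in low serum, at least 177-fold lower in MDA-MB-231, and ZNF471 held 0 and 2 against 508 and 409, at least 140-fold lower. Neither was called between POS and NEG in either line. The same held for ZNF274, with 2296 and 2185 counts in MDA-MB-231 7TGP-NEG, 2212 and 1887 in MDA-MB-231 7TGP-POS, 2511 and 2145 in MDA-MB-436 7TGP-NEG and 2386 and 2504 in MDA-MB-436 7TGP-POS in low serum.

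Whether a member responded differently in the cell lines was tested as an interaction, the log2 fold change of POS against NEG in MDA-MB-231 minus that in MDA-MB-436. There were 34 of 233 members called in low serum (5 positive, 29 negative), or 14.6% against a background of 11.7% (4.72% positive and 7.01% negative), and 39 of 225 in standard serum (9 positive, 30 negative), or 17.3% against 13.8% (7.02% and 6.81%). With limma on log2(TPM + 1), 14 and 17 were called. In both serum conditions 28 members were called, 25 negative and 3 positive, and 16 of the 28 belong to cluster D. How many of all genes were called in both was not counted. For 12 of the 28 no group was at the floor, so that the value does not depend on a prior count. ZNF320 had the largest such interaction, −6.90 ± 0.168 in low serum (adjusted p = 2.22e-30) and −8.58 ± 0.241 in standard serum (adjusted p = 2.55e-14). ZNF714 in cluster D had a positive one, 1.41 ± 0.187 (adjusted p = 3.68e-08) and 1.05 ± 0.243 (adjusted p = 0.00188), with 295 and 301 counts in MDA-MB-231 7TGP-NEG, 424 and 373 in MDA-MB-231 7TGP-POS, 155 and 166 in MDA-MB-436 7TGP-NEG and 91 and 75 in MDA-MB-436 7TGP-POS in low serum. Its standard serum call ended without MDA-MB-436 NEG replicate 2 (0.98) or POS replicate 2 (0.84). The interaction shares its libraries with the comparisons above and is no further evidence for them.

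Genes through which KRAB zinc finger proteins act were read beside the members, together with enzymes that remove histone or DNA methylation. The list held 33 corepressor, heterochromatin and DNA methylation genes, of which 32 were tested. None was called between POS and NEG in either cell line and serum condition, or in the interaction, by edgeR at an absolute log2 fold change of 1, where 5.90% and 7.69% of all genes were called between the MDA-MB-231 sublines, 10.5% and 12.5% between the MDA-MB-436 sublines and 11.7% and 13.8% in the interaction. In standard serum 1 was called between the MDA-MB-436 sublines without NEG replicate 2, and 1 in the interaction without any of 5 libraries (MDA-MB-231 NEG replicate 2 or POS replicate 2, MDA-MB-436 NEG replicate 1 or either POS replicate). At an adjusted p under 0.05 alone, 17 and 11 of the 32 differed between the MDA-MB-231 sublines in low and standard serum and 21 and 18 between the MDA-MB-436 sublines, against 38.9%, 33.0%, 52.0% and 49.5% of all genes tested. Between the NEG sublines 29 and 27 of the 32 did so, against 79.2% and 78.8%, and in the interaction 18 and 11, against 45.7% and 41.2%. Log2 fold changes between MDA-MB-436 sublines lay between −0.86 and 0.38 in low serum and between −0.91 and 0.68 in standard serum. TRIM28, the corepressor itself, held 600.1 and 642.8 CPM in MDA-MB-436 7TGP-NEG and 694.8 and 672.0 CPM in 7TGP-POS in low serum (log2 0.14 ± 0.05, adjusted p = 0.0195), and SETDB1 held 106.5 and 101.9 against 128.6 and 127.3 CPM (0.30 ± 0.0525, adjusted p = 7.53e-06). These differences passed the adjusted p threshold and were well below the fold threshold. Between the NEG sublines, SUV39H1, a histone methyltransferase, and KDM4C, a histone demethylase, were lower in MDA-MB-231 in both serum conditions (log2 −1.19 and −1.84 for SUV39H1, −1.41 and −1.77 for KDM4C), TET1 was lower in standard serum (−1.07) and MPHOSPH8, a reader of heterochromatin, was higher in standard serum (1.03). Without MDA-MB-436 NEG replicate 1, 2 of the 4 calls in standard serum were left. The list thus held 2 and 4 calls of 32 between the NEG sublines, against 41.9% and 46.7% of all genes.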

How the data were processed

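Bulk RNA-Seq of 16 libraries (8 groups, 2 biological replicates each) was analysed, with groups taken from the sample labels. The authors aligned reads to hg19 (GRCh37) with STAR (2.6.1a per the labels), after a Bowtie screen against ribosomal RNA, counted uniquely mapped reads per Gencode v19 gene, and deposited the raw whole counts together with TPM values, whose calculation is not given in the sources used here. Unique mapping can lower the count of a gene with near-identical paralogs. Nothing says that replicates came from separate thaws, so p-values measure the spread between cultures of a subline.

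Symbols, biotypes and positions were joined by Ensembl identifier. Protein-coding genes with 10 or more counts in total were fitted separately for each serum condition with edgeR 4.0.16 (R 4.3.3; TMM, robust quasi-likelihood, 4 groups, all genes tested), with Benjamini-Hochberg adjustment over all genes. The standard error of a log2 fold change was taken as its size over the root of the F statistic. CPM uses TMM-scaled library sizes. Bounds ("at least") use 3 counts in each library of the group at the floor and cover counting error only. A shared stretch is a 100-base window of a gene's transcripts found in another gene. Alternatives were DESeq2 1.42.0, its size factors, other filters, all biotypes, the replicate number as a block, limma 3.58.1 on log2(TPM + 1), leaving out each library and, chosen after seeing the data, floors of 1 and 5 counts. The edgeR step was tested on simulated data. Python 3.11.15 with pandas 2.3.3, numpy 2.4.6 and matplotlib 3.10.9 was used for tables and plots.

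Members and lists were chosen with earlier results of these data known. Named members are those with the lowest adjusted p in each comparison (6 per direction, or 5 between NEG sublines), those called in both serum conditions, lines or the interaction, those going between floor and detected, the highest TPM per cluster, and members of known role. ZNF20, ZNF44, ZNF101, ZNF177, ZNF208, ZNF253, ZNF254, ZNF430, ZNF492, ZNF708, ZNF799 and the members under the count filter were named beyond that rule after their values were seen. UHRF1 and PECAM1 had no matching identifier and were not analysed here.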

Additional observations from a re-analysis of the deposited data

Results flagged for a closer look

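The response to the reporter sort differed between the cell lines, by the interaction in edgeR, for 34 members in low serum (14.6%, against 11.7% of all genes) and 39 in standard serum (17.3% against 13.8%). In both, 28 members passed, a number not counted over all genes. For 12 of these no group was at the floor. The log2 interaction (MDA-MB-231 minus MDA-MB-436, low and then standard serum) was −6.90 and −8.58 for ZNF320, −3.96 and −4.61 for ZNF665, −2.91 and −2.48 for ZNF610, −2.11 and −2.60 for ZNF836 and −1.98 and −2.19 for ZNF415, all in cluster H, where ZNF175 also had −1.58 and −1.26. In cluster D it was −3.21 and −3.86 for ZNF93, −1.82 and −1.63 for ZNF431 and 1.41 and 1.05 for ZNF714. ZNF599 had −1.01 and −1.55, ZNF418 −1.19 and −1.36, and ZNF132 1.11 and 1.16. Single libraries decided some of these calls. In low serum ZNF599 lost its call without MDA-MB-231 NEG replicate 2 (−0.887), MDA-MB-231 POS replicate 2 (−0.991), MDA-MB-436 NEG replicate 1 (−0.971) or MDA-MB-436 POS replicate 2 (−0.963), ZNF418 without MDA-MB-231 POS replicate 2 (−0.998), and ZNF132 without MDA-MB-231 NEG replicate 1 (0.995) or POS replicate 2 (0.932). In standard serum ZNF132 lost it without MDA-MB-231 NEG replicate 1 (0.759), either MDA-MB-231 POS replicate (1.162 and 1.159) or MDA-MB-436 NEG replicate 2 (1.039), and ZNF714 without MDA-MB-436 NEG replicate 2 (0.976) or POS replicate 2 (0.84).

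The span of cluster D also holds genes outside the set described, such as pseudogenes and long noncoding RNAs, with at least 10 counts over the 8 libraries for 28 of them in low serum and 23 in standard serum. Of the 18 detected in MDA-MB-231 7TGP-NEG in low serum, 8 were silent (at the floor) in the MDA-MB-436 counterpart, and of 9 in standard serum, 5 were. Of these, 0 were detected in MDA-MB-436 7TGP-POS in either serum condition at 10 counts in both libraries, though some came close. The long noncoding RNA ENSG00000267481 went from 0 and 0 counts in MDA-MB-436 7TGP-NEG to 14 and 8 (low serum) and 9 and 9 (standard serum) in 7TGP-POS, and the pseudogene VN1R82P from 2 and 2 to 8 and 11 in low serum. ENSG00000267886, a long noncoding RNA at 0 in all MDA-MB-231 libraries, went from 1 and 0 to 17 and 10 in low serum and from 0 and 0 to 21 and 17 in standard serum. LINC01224, a long noncoding RNA, held 211 and 214 counts in MDA-MB-231 7TGP-NEG, 1 and 0 in MDA-MB-436 7TGP-NEG and 1 and 1 in MDA-MB-436 7TGP-POS in low serum. The pseudogene ZNF826P held 115 and 127, 1 and 0, and 0 and 0. They were picked for naming with their values in view, and no test was run on them.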

How the results depend on the processing

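No called change of a named member changed sign under any alternative that was run, but the balance of calls did turn with the fold threshold. With an adjusted p under 0.05 and no fold threshold, more members were called, given for MDA-MB-231 sublines, MDA-MB-436 sublines, NEG sublines and the interaction. In low serum they were 56, 98, 189 and 76 of 233, against 38.9%, 52.0%, 79.2% and 45.7% of all genes. In standard serum they were 55, 83, 167 and 80 of 225, against 33.0%, 49.5%, 78.8% and 41.2%. The members' share was thus below that of all genes except between NEG sublines in low serum. Of the KAP1 list, the same order gave 17, 21, 29 and 18, then 11, 18, 27 and 11. The 98 split into 46 higher and 52 lower and the 83 into 50 and 33, unlike 26 and 7, and 26 and 6, with the threshold. With limma on log2(TPM + 1) the members called fell to 1, 12 and 14 in low serum (MDA-MB-231 sublines, MDA-MB-436 sublines, interaction) and 1, 13 and 17 in standard serum. Cluster D then had 5 and 5 calls between MDA-MB-436 sublines and 14 between NEG sublines in standard serum, and the KAP1 list 5 between NEG sublines in low serum. DESeq2 called 4 of 233 members between MDA-MB-231 sublines in low serum.

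Leaving out 1 library gave 6 to 11 and 2 to 7 members for the MDA-MB-231 sublines (low and standard serum), 30 to 33 and 29 to 35 for MDA-MB-436, 78 to 89 and 79 to 90 between NEG sublines, and 30 to 34 and 35 to 39 in the interaction. In cluster D it gave 15 to 16 and 15 to 17 between MDA-MB-436 sublines and 21 to 24 and 21 to 22 between NEG sublines. The KAP1 list had 0 to 1 in standard serum between MDA-MB-436 sublines and in the interaction, and 2 to 4 between NEG sublines. The lone sample of such a group is assumed to vary like the other groups.

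Replicate numbers are shared by all groups. Deviations of same-numbered samples correlated between −0.21 and 0.0797 in low serum and between −0.0509 and 0.405 in standard serum, where 5 of 6 pairs of groups were over 0.1. Since no label ties a number to a shared culture or day and the correlation did not hold for all pairs of groups, the numbers were not taken as pairs. With the replicate block, calls numbered 8, 33, 86 and 34 (low serum) and 3, 32, 87 and 41 (standard serum), in the order above, and in cluster D 16 and 16 between MDA-MB-436 sublines and 24 and 22 between NEG sublines. The KAP1 list had 0 calls between POS and NEG under the block. ZNF497 lost its call between MDA-MB-231 sublines in standard serum (0.99).

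With cluster gaps of 250 kb there were 12 clusters and the longest run of cluster D held 29 genes, and with gaps of 1 Mb 9 clusters and 37. Floors of 1 and 5 counts, chosen after seeing the data, gave 14 and 24 members silent in MDA-MB-436 7TGP-NEG but detected in MDA-MB-231 7TGP-NEG in low serum (6 and 12 then detected in 7TGP-POS), and 18 and 23 (11 and 14) in standard serum. Genes under about 10 counts in a library are limited by depth, among them 5 of the 6 cluster D genes called in MDA-MB-231 in low serum (all but ZNF257), which were that low in the NEG subline.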
